A study of Mus musculus with 40 samples.

Results

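The ERBB receptor system is described here by 10 genes: the ligand genes Areg, Ereg, Epgn, Btc, Hbegf and Tgfa, the receptor genes Egfr, Erbb2 and Erbb3, and the inhibitor gene Errfi1. They were chosen by symbol, through the Ensembl identifier of each row, from a table of 53465 genes, and all 10 were found and passed the filter on low counts. The table holds polyA RNA-seq counts of mouse bladder urothelial cells grown as organoids, which are cultures that form small epithelial bodies. The 8 libraries fall into 4 groups of 2: wild-type (WT) cells with the solvent DMSO, WT cells with MI-503, cells labelled as double knockouts of Kmt2c and Kmt2d (dKO) with DMSO, and cells labelled dKO with MI-503. MI-503, given at 1 µM for 4 days, is an inhibitor of menin, a partner protein of the histone methyltransferase KMT2A. Every group grew in medium with added EGF at 50 ng/ml, a ligand of the same receptor, together with Noggin, R-spondin, the ROCK inhibitor Y-27632 and the TGF-beta receptor inhibitor A83-01. The sources used here do not give strain, age, the number of animals or lines, or how the genes were deleted. They do not say whether the 2 libraries of a group came from separate cultures, and p-values therefore measure spread among these libraries, which may be technical.

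ERBB receptors are receptor tyrosine kinases. A ligand of the EGF family is made as a membrane protein, is cut free by a metalloprotease, and binds EGFR, ERBB3 or ERBB4, depending on the ligand, and the bound receptor pairs with itself or with another ERBB receptor and drives the RAS-ERK and PI3K pathways. ERBB2 has no known ligand and ERBB3 has little kinase activity of its own, so both act mainly as partners. In bladder epithelium this system is known for its part in regrowth after injury, and ERBB2 and ERBB3 are mutated or amplified in some bladder cancers.

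Library totals ran from 58113705 to 68571176 counts. Values below are in CPM, a gene's counts relative to the total of its library on the usual per-million scale, after TMM, a factor that aligns the bulk of genes between libraries. They were tested with edgeR's quasi-likelihood F test, two-sided, and a gene is said to have risen or fallen where the p adjusted by Benjamini-Hochberg over 16921 genes was under 0.05. Log2 fold changes are given with their standard error (SE). Kmt2c RNA was 110.2 and 111 CPM in WT DMSO and 55.2 and 52.3 CPM in the libraries labelled dKO with DMSO, whereas Kmt2d RNA was 95.4 and 86.5 against 111 and 133 CPM, so that Kmt2d RNA was not lower under the label. Whole-gene counts do not show the loss of single exons, and all directions below refer to the labels. Both WT DMSO libraries stood apart from the rest: 15 genes of endoplasmic reticulum (ER) chaperones took 3.68% and 3.95% of their counts against 0.420% to 0.547% in the other 6. Results that rest on the WT DMSO group cannot be had without it, and the part of this state in them was not tested. Basal urothelial markers (Krt5, Krt14, Trp63, Itga6, Cd44) summed to 7565 to 8195 CPM in WT DMSO, 11144 to 11680 with MI-503 in WT cells, 18277 to 19937 in labelled dKO DMSO and 17075 to 18958 in labelled dKO MI-503. With MI-503 in WT, Krt5 (log2 fold change 0.91), Cd44 (0.90) and Itga6 (0.38) rose, while Trp63 (-0.96) and Krt14 (-0.41) fell. In labelled dKO cells 1 of the 5 rose and 2 fell with MI-503. There, mean Trp63 went from 1005 to 565 CPM and Itga6 from 2884 to 1702 CPM. Of 5 differentiated urothelial markers (Upk1a, Upk1b, Upk2, Upk3a, Krt20), 4 were tested, Upk2 was under 1 CPM in every library, and the sum, mostly Upk1b, ran from 102 to 158 CPM. Within that list Krt20 was at 0.320 CPM in WT DMSO and 10.8 in labelled dKO DMSO (log2 fold change 5.07), Upk3a at 0.229 and 2.09 (3.18) and Upk1a at 1.37 and 0.430 (-1.67), and all 3 passed. Of 7 fibroblast markers, Col1a2, Dcn and Lum had 0 counts in every library and the sum stayed at or under 8.49 CPM, and 4 endothelial markers summed to at most 0.195 CPM. Of 6 immune markers, Lyz2 had 0 counts and Cd68 alone exceeded 1 CPM, at 17.5 CPM in WT cells given DMSO, 163 in those given MI-503, 13.1 in labelled dKO DMSO and 65.5 in labelled dKO MI-503. Of 5 smooth muscle markers only Acta2 exceeded 1 CPM, and it followed MI-503 (3.20 and 40.8 CPM in WT, 0.988 and 7.14 in labelled dKO cells). Of 5 neural and glial markers 3 stayed under 1 CPM, and the sum was 2.33 to 2.79 CPM in WT DMSO and 24.0 to 28.8 in labelled dKO MI-503, mostly through Tubb3 (1.07 and 25.9 CPM). The 9 general epithelial markers summed to 6321 to 6890 CPM in WT DMSO, 9398 to 9798 in WT MI-503 and 5937 to 6903 in the labelled dKO libraries. The higher sum in WT MI-503 came mostly through Krt7 (1311 and 4989 CPM). In WT, 4 of the 9 rose with MI-503 and 3 fell: Krt18 (log2 fold change -0.41), Krt19 (-0.28) and Gata3 (-0.90). Under the dKO label in DMSO, where 65.4% of all genes passed, 5 of the 9 rose and 3 fell. Those that fell were Pparg (-1.38), Krt18 (-0.66) and Krt19 (-0.47). Between genotypes with MI-503, where 55.1% of all genes passed, 3 of the 9 rose and 6 fell. The part of these shifts in the results was not tested. In such bulk samples, fewer cells of a type and less RNA per cell cannot be told apart.

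In outline, Areg, Ereg and Epgn RNA was highest in labelled dKO cells with DMSO and was strongly lower with MI-503 in both genotypes. Tgfa RNA moved the other way with MI-503, and Hbegf RNA stayed within 143 to 171 CPM in all 8 libraries. Egfr RNA was highest in WT DMSO and nearly equal in the other groups. Erbb3 and Errfi1 RNA was lower under the dKO label with either treatment.

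**Figure D1:**
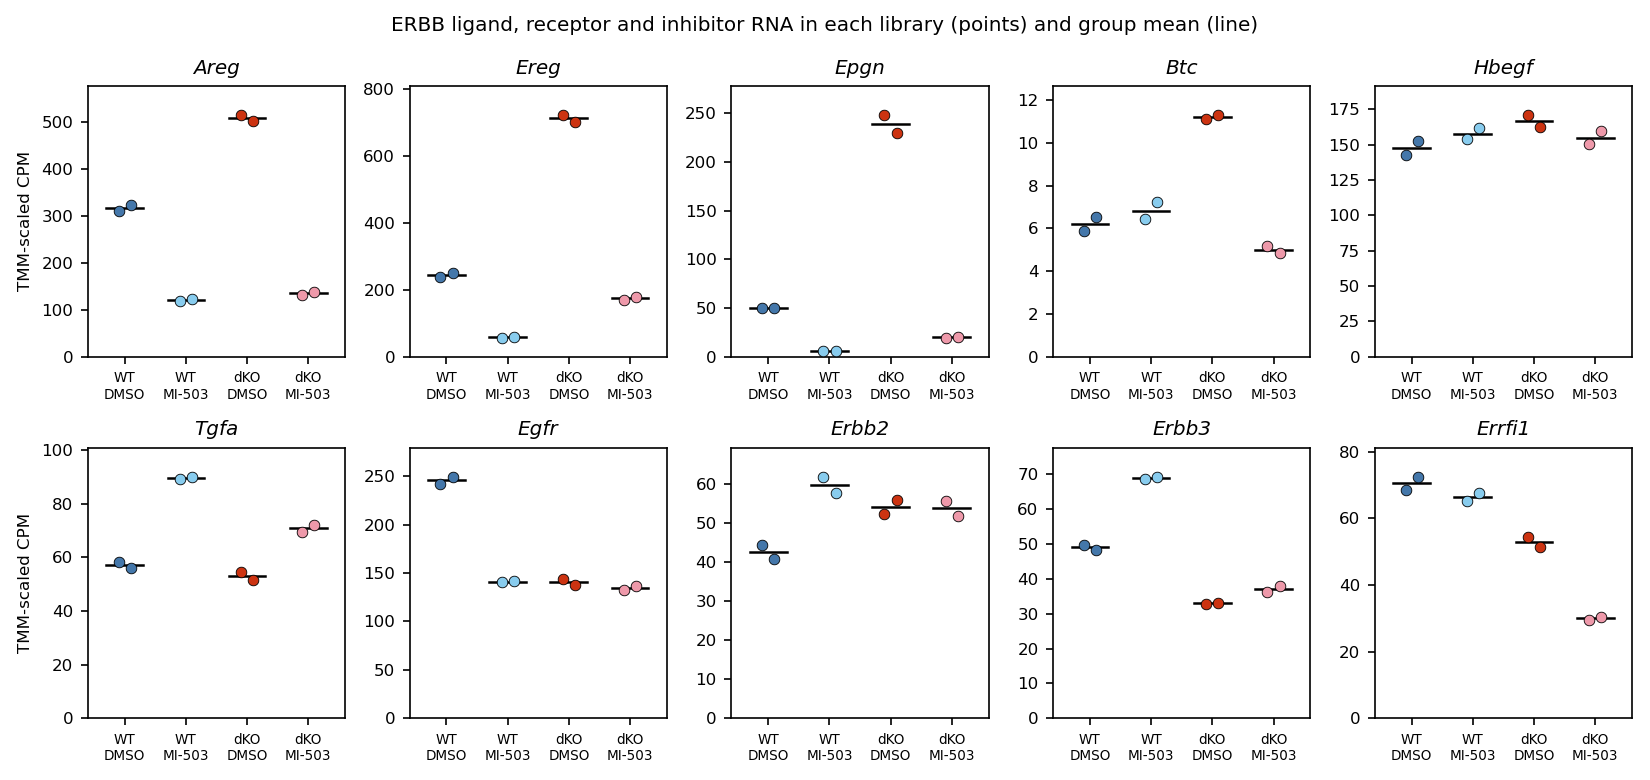
TMM-scaled CPM (linear axes from 0) of the 10 genes in each of the 8 libraries, by genotype label and treatment; points are libraries and lines are group means over 2 libraries. Areg, Ereg and Epgn are each highest in labelled dKO DMSO and lower with MI-503 in both genotypes, while Egfr stands out only in WT DMSO.

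Areg, Ereg and Epgn encode amphiregulin, epiregulin and epigen, ligands of EGFR. These genes and Btc, which encodes betacellulin, lie side by side on mouse chromosome 5 in the order Epgn (ENSMUSG00000035020, chromosome 5, 91027517 to 91035212), Ereg (ENSMUSG00000029377, 91074617 to 91093649), Areg (ENSMUSG00000029378, 91139599 to 91148432) and Btc (ENSMUSG00000082361, 91357261 to 91402994). Coordinates are those of RefSeq genes on GRCm38.p6, and the 4 genes span 375 kb with no other protein-coding gene between them. The 250 bases before the annotated start are shown for the 3 of these genes whose promoter was matched in RefSeq (GRCm38.p6), because these neighbours differ in these letters. Any link of the letters to the changes below was not tested. Capitals mark matches on either strand to the full cAMP response element, with the letters TGACGTCA, or to the core of the TATA box, with the letters TATAAA. The AP-1 motif, TGANTCA, was also searched on both strands and has no match in any promoter window matched to the 10 genes.
Areg promoter (chr5:91139349-91139598, + strand): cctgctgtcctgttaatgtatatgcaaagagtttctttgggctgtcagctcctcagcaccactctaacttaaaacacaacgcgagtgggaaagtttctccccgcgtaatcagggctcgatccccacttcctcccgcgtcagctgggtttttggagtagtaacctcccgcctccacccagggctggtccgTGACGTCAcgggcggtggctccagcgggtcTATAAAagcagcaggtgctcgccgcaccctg
Epgn promoter (chr5:91027267-91027516, + strand): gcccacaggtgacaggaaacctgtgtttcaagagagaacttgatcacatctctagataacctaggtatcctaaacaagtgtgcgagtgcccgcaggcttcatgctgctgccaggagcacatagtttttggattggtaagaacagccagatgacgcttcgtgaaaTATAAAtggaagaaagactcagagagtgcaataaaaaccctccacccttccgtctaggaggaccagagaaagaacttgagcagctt
Btc promoter (chr5:91402995-91403244, - strand): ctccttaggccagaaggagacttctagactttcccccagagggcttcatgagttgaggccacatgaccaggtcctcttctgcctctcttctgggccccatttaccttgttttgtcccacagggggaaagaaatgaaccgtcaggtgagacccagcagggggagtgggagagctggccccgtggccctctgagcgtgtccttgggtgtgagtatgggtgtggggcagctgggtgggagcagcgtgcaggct

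The Areg window holds TGACGTCA from 61 bases before the start and TATAAA from 31 bases before it. The Epgn window holds TATAAA from 86 bases before the start, and the Btc window holds none of the motifs. Of 32841 RefSeq promoter windows of the same length, 1.55% hold TGACGTCA, 6.75% hold TGANTCA and 12.4% hold TATAAA. The Areg window has 15 CpG pairs, the Epgn window 5 and the Btc window 4, against a median of 6 over all windows. A match is a description of letters, and no binding was measured in the data analysed here.

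Areg RNA was 310.1 and 324 CPM in WT cells given DMSO, 119 and 123 in WT cells given MI-503, 516 and 502 in labelled dKO DMSO and 132 and 139 in labelled dKO MI-503. No 2 groups overlapped, and the MI-503 groups lay far below both DMSO groups. Areg rose in labelled dKO against WT cells in DMSO by a log2 fold change of 0.68 (SE 0.047, edgeR adjusted p = 1.8e-08). With MI-503 it fell by 1.39 on the log2 scale in WT (SE 0.048, edgeR adjusted p = 1.29e-11) and fell by 1.91 in labelled dKO cells (SE 0.048, edgeR adjusted p = 3.92e-12). The fall was larger in labelled dKO cells, with a difference of -0.52 (SE 0.067, edgeR adjusted p = 2.47e-05). Among MI-503 libraries the genotype difference was small, at 0.16 (edgeR adjusted p = 0.0101), and this call ended without WT MI-503 replicate 1 (0.14, adjusted p = 0.0994) or labelled dKO MI-503 replicate 2 (0.13, adjusted p = 0.0974).

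Ereg RNA was 238 and 250.2 CPM in WT cells given DMSO, 57.2 and 58.6 in WT cells given MI-503, 722 and 702 in labelled dKO DMSO and 169.7 and 179 in labelled dKO MI-503. The groups did not overlap, and the labelled dKO libraries were about equally far above WT with either treatment. That genotype difference was 1.54 in DMSO, and it was 1.59 with MI-503 (SE 0.049, edgeR adjusted p = 7.69e-12). MI-503 lowered Ereg by 2.08 on the log2 scale in WT (SE 0.050, edgeR adjusted p = 5.34e-13) and by 2.03 in labelled dKO cells (SE 0.049, edgeR adjusted p = 2.25e-12). Ereg was the only 1 of the 10 genes whose MI-503 effect did not pass the test of a difference between genotypes (0.049, 95% interval -0.097 to 0.19, edgeR adjusted p = 0.596).

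Epgn had the widest range of the 10 genes as a fold between libraries, though not in CPM. Its RNA was 49.9 and 49.7 CPM in WT cells given DMSO, 5.47 and 5.70 in WT cells given MI-503, 248 and 229 in labelled dKO DMSO and 19.5 and 20.5 in labelled dKO MI-503. It rose in labelled dKO against WT cells by 2.26 in DMSO (SE 0.055, edgeR adjusted p = 6.11e-13) and by 1.84 with MI-503 (SE 0.069, edgeR adjusted p = 4.9e-11). With MI-503 it fell by 3.16 on the log2 scale in WT (SE 0.067, edgeR adjusted p = 1.83e-13) and by 3.58 in labelled dKO cells (SE 0.060, edgeR adjusted p = 1.21e-13). The difference of -0.42 between these falls passed (edgeR adjusted p = 0.00144).

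Btc had the lowest counts of the ligand genes, 299 to 806 per library. Its RNA was 5.86 and 6.51 CPM in WT cells given DMSO, 6.42 and 7.24 in WT cells given MI-503, 11.1 and 11.3 in labelled dKO DMSO and 5.18 and 4.85 in labelled dKO MI-503. Only the labelled dKO DMSO libraries stood clearly above the rest, and the WT groups overlapped. Btc rose in labelled dKO against WT cells in DMSO (0.86, SE 0.099, edgeR adjusted p = 3.58e-06) but fell in the same comparison with MI-503 (-0.44, SE 0.10, edgeR adjusted p = 0.00255). With MI-503 it fell by 1.16 on the log2 scale in labelled dKO cells (SE 0.10, edgeR adjusted p = 3.37e-07), and in WT the change of 0.14 did not pass (edgeR adjusted p = 0.242). With library size as the only scaling the WT change was 0.31 and passed (adjusted p = 0.0137). The difference between these effects, -1.30 (SE 0.14, edgeR adjusted p = 6.28e-06), was the largest of the 10 genes.

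None of the coding genes next to the ligand genes in RefSeq rose under the dKO label in DMSO. On the Epgn side lie Mthfd2l, which encodes a mitochondrial folate enzyme, and the chemokine gene Cxcl2, and on the Btc side Parm1, which encodes a mucin-like protein, and Rchy1, a ubiquitin ligase gene. In DMSO the 4 ligand genes rose under the dKO label while Parm1 (log2 fold change -2.24), Cxcl2 (-1.87) and Rchy1 (-0.88) fell and Mthfd2l (0.081, edgeR adjusted p = 0.356) did not pass. With MI-503 all 4 flanking genes fell in both genotypes, by log2 fold changes of -0.64 and -0.32 for Mthfd2l, -2.86 and -2.37 for Cxcl2, -1.66 and -0.76 for Parm1 and -0.69 and -0.27 for Rchy1 in WT and labelled dKO cells. Between genotypes with MI-503, Mthfd2l rose under the dKO label (0.39, edgeR adjusted p = 0.000653), by more than Areg (0.16). In that comparison Parm1 (-1.34), Cxcl2 (-1.38) and Rchy1 (-0.46) fell, and so did the ligand gene Btc (-0.44). Cxcl2 rested on 408 counts in all 8 libraries.

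**Figure D2:**
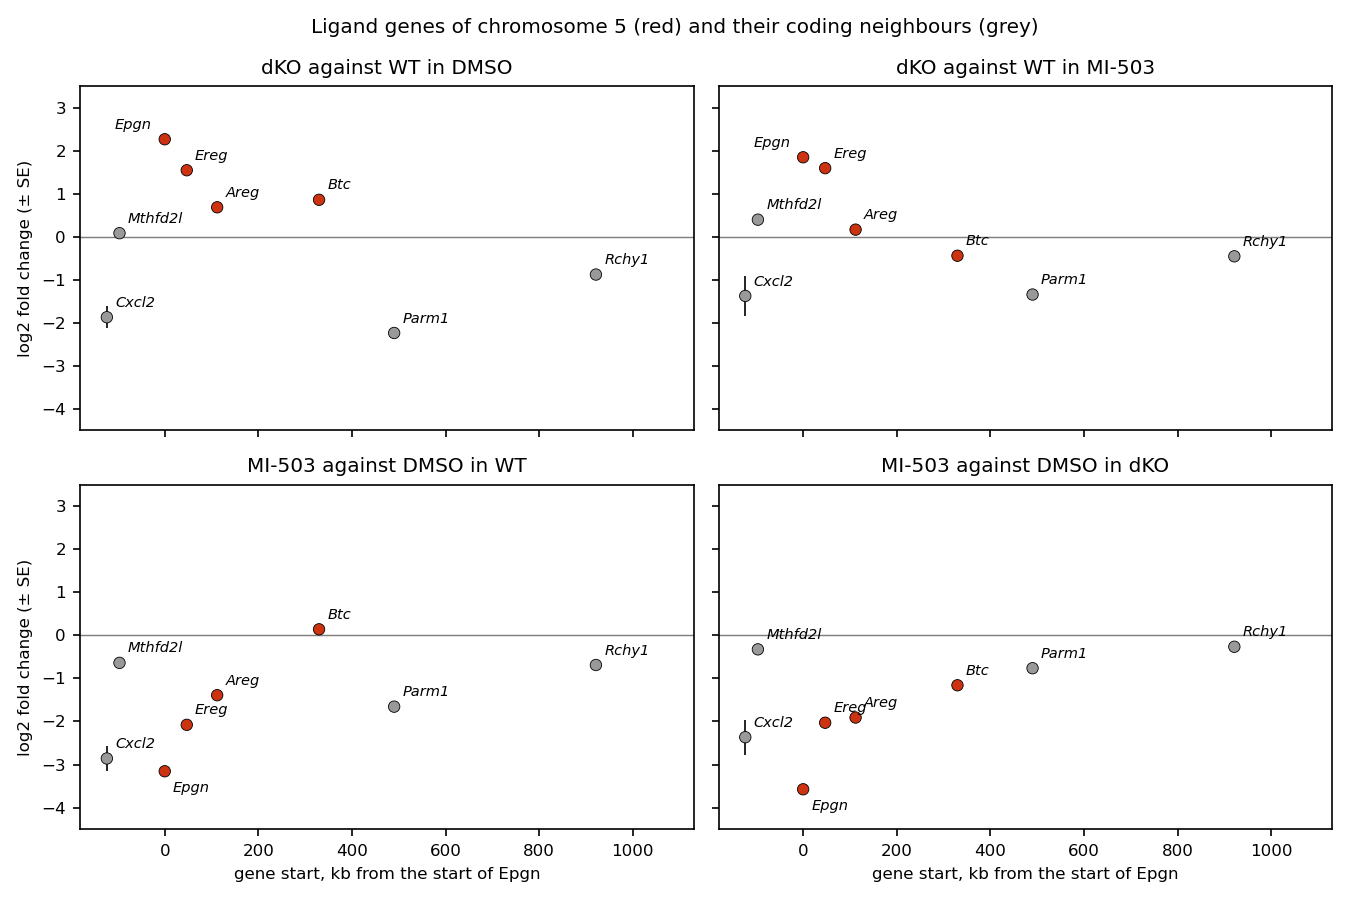
Log2 fold change with SE (y axis) of the 4 ligand genes of chromosome 5 (red) and 4 coding neighbours (grey) against the distance of the gene start from that of Epgn in kb (x axis), in 4 comparisons. With either treatment the genotype difference is highest at Epgn (2.26 in DMSO, 1.84 with MI-503) and the flanking genes Cxcl2, Parm1 and Rchy1 lie below 0. With MI-503 the flanking gene Mthfd2l (0.39) lies above the ligand gene Areg (0.16), and the ligand gene Btc (-0.44) lies below 0.

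Hbegf and Tgfa, which encode heparin-binding EGF-like growth factor and transforming growth factor alpha, lie on other chromosomes and did not follow the chromosome 5 genes. Hbegf (ENSMUSG00000024486) RNA was 143 and 153 CPM in WT cells given DMSO, 154 and 162 in WT cells given MI-503, 171 and 163 in labelled dKO DMSO and 150.4 and 159.5 in labelled dKO MI-503. All 8 libraries lay close together. Hbegf rose in labelled dKO against WT cells in DMSO by 0.17 (SE 0.052, edgeR adjusted p = 0.00984), a call that ended without WT DMSO replicate 1 (0.13, adjusted p = 0.103) or labelled dKO DMSO replicate 1 (0.14, adjusted p = 0.0632). Its MI-503 effects did not pass in WT (0.094, 95% interval -0.020 to 0.21) or in labelled dKO cells (-0.11, 95% interval -0.22 to 0.0062). Without the filter on low counts both passed (0.17, adjusted p = 0.00526, and -0.13, adjusted p = 0.0436). Both also passed with a stricter filter (0.17, edgeR adjusted p = 0.0101, and -0.13, edgeR adjusted p = 0.0439). With library size as the only scaling the WT effect was 0.27 (adjusted p = 0.000364).

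Tgfa (ENSMUSG00000029999, chromosome 6, 86195038 to 86275744) RNA was 58.3 and 55.9 CPM in WT cells given DMSO, 89.1 and 90.1 in WT cells given MI-503, 54.3 and 51.5 in labelled dKO DMSO and 69.5 and 72.1 in labelled dKO MI-503. Both MI-503 groups lay above both DMSO groups. Of the 6 ligand genes described here, Tgfa alone passed upward with MI-503 in this fit, by 0.65 in WT (SE 0.052, edgeR adjusted p = 6.71e-08) and by 0.42 in labelled dKO cells (SE 0.052, edgeR adjusted p = 1.15e-05). Between genotypes it did not pass in DMSO (-0.11, edgeR adjusted p = 0.0857) and was lower under the dKO label with MI-503 (-0.34, SE 0.052, edgeR adjusted p = 8.04e-05).

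Reads of the 6 ligand genes together came to 806 and 839 CPM in WT cells given DMSO, 431 and 446 in WT cells given MI-503, 1723 and 1659 in labelled dKO DMSO and 546 and 575 in labelled dKO MI-503. The mix changed with the sum. Hbegf took 17.7% and 18.2% of these reads in WT DMSO and 35.7% and 36.2% in WT MI-503, and 9.92% and 9.81% in labelled dKO DMSO against 27.5% and 27.7% with MI-503. The Epgn share was 6.19% and 5.92% in WT DMSO, 1.27% and 1.28% in WT MI-503, 14.4% and 13.8% in labelled dKO DMSO and 3.58% and 3.57% in labelled dKO MI-503. Transcript lengths were not used here, so these shares compare a gene between libraries and do not rank the ligands within one.

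Egfr (ENSMUSG00000020122, chromosome 11, 16752203 to 16913907), which encodes the EGF receptor, measured 241 and 249.7 CPM in WT cells given DMSO, 140.3 and 142 in WT cells given MI-503, 143 and 137 in labelled dKO DMSO and 132 and 137 in labelled dKO MI-503. The WT DMSO libraries were high and the other 6 lay within 132 to 143 CPM. Egfr fell by 0.81 on the log2 scale in labelled dKO against WT cells in DMSO (SE 0.045, edgeR adjusted p = 2.41e-09) and by 0.80 with MI-503 in WT (SE 0.046, edgeR adjusted p = 1.76e-09). In labelled dKO cells the MI-503 effect did not pass (-0.065, 95% interval -0.16 to 0.034, edgeR adjusted p = 0.252), nor did the genotype difference with MI-503 (-0.072, 95% interval -0.17 to 0.026, edgeR adjusted p = 0.201). The effects of MI-503 in the genotypes differed by 0.73 (SE 0.064, edgeR adjusted p = 7.94e-07).

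Erbb2 (ENSMUSG00000062312, chromosome 11, 98412484 to 98437716), the receptor gene without a ligand, had the opposite shape. Its RNA was 44.4 and 40.7 CPM in WT cells given DMSO, 61.9 and 57.7 in WT cells given MI-503, 52.3 and 56.0 in labelled dKO DMSO and 55.7 and 51.8 in labelled dKO MI-503. WT DMSO was the lowest group, and the labelled dKO groups overlapped. Erbb2 rose under the dKO label in DMSO (0.35, SE 0.066, edgeR adjusted p = 0.000366) and with MI-503 in WT (0.49, SE 0.066, edgeR adjusted p = 1.39e-05). In labelled dKO cells MI-503 left a difference of -0.010 (95% interval -0.15 to 0.13, edgeR adjusted p = 0.912), and the effects differed between genotypes by -0.50 (SE 0.093, edgeR adjusted p = 0.000551). The genotype difference with MI-503 did not pass (-0.15, edgeR adjusted p = 0.0642), but it did with only the groups compared (-0.15, adjusted p = 0.0421) and without labelled dKO MI-503 replicate 1 (-0.21, adjusted p = 0.0499).

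Erbb3 (ENSMUSG00000018166, chromosome 10, 128567523 to 128589635), the receptor gene with little kinase activity, measured 49.6 and 48.4 CPM in WT cells given DMSO, 68.5 and 69.3 in WT cells given MI-503, 32.8 and 33.0 in labelled dKO DMSO and 36.3 and 37.8 in labelled dKO MI-503. All labelled dKO libraries lay below all WT libraries. The fall under the dKO label was 0.57 on the log2 scale in DMSO (SE 0.054, edgeR adjusted p = 4.76e-07) and 0.90 with MI-503 (SE 0.054, edgeR adjusted p = 6.98e-09). MI-503 raised Erbb3 in WT by 0.49 (SE 0.053, edgeR adjusted p = 1.46e-06) and less in labelled dKO cells, by 0.17 (SE 0.055, edgeR adjusted p = 0.0164). The difference of -0.32 passed (SE 0.076, edgeR adjusted p = 0.00328), but the call in labelled dKO cells ended without labelled dKO DMSO replicate 1 (0.16, adjusted p = 0.0664), without labelled dKO MI-503 replicate 2 (0.14, adjusted p = 0.131), with no filter (0.15, adjusted p = 0.101) and with only the groups compared (0.15, adjusted p = 0.0769).

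Errfi1 (ENSMUSG00000028967, chromosome 4, 150853796 to 150868889) encodes MIG6, an inhibitor that ERK signalling induces and that binds the EGFR and ERBB2 kinases. Its RNA was 68.5 and 72.5 CPM in WT cells given DMSO, 65.3 and 67.6 in WT cells given MI-503, 54.3 and 51.4 in labelled dKO DMSO and 29.6 and 30.5 in labelled dKO MI-503. Labelled dKO libraries with MI-503 stood lowest. Errfi1 fell under the dKO label by 0.42 on the log2 scale in DMSO (SE 0.056, edgeR adjusted p = 1.65e-05) and by 1.15 with MI-503 (SE 0.058, edgeR adjusted p = 1.12e-09). MI-503 lowered it in labelled dKO cells by 0.82 (SE 0.058, edgeR adjusted p = 4.62e-08), whereas in WT the change of -0.086 did not pass (edgeR adjusted p = 0.187). The difference of -0.73 between these effects passed (SE 0.080, edgeR adjusted p = 5.99e-06).

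Errfi1 has 2 promoter windows in RefSeq, and the downstream one holds the same 2 motifs as that of Areg, TGACGTCA from 51 bases and TATAAA from 28 bases before the start. The other holds neither. MI-503 lowered Areg and Errfi1 in labelled dKO cells (log2 fold change -1.91 and -0.82), and in WT it lowered Areg while the Errfi1 change did not pass. Under the dKO label the 2 genes went opposite ways. Areg rose there (0.68 in DMSO and 0.16 with MI-503) and Errfi1 fell (-0.42 and -1.15). Any link of the shared letters to these changes was not tested. The 30 bases around the first motif, in capitals, are shown for both genes because they share its letters.
Areg (chr5:91139527-91139556, + strand): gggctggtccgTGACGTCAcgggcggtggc
Errfi1 (chr4:150855008-150855037, + strand): gctgcgggcgtTGACGTCAcgttgtcgctc
Promoter windows were matched for 7 of the 10 genes, Ereg, Hbegf and Erbb3 being the others. Those of Tgfa, Egfr and Erbb2 hold none of the motifs and have 19, 11 and 16 CpG pairs.

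Counted over the 10 genes, 6 rose and 3 fell in labelled dKO against WT cells in DMSO, which is 90% of them, where 65.4% of all 16921 genes were called (29.6% higher, 35.8% lower). MI-503 in WT raised 3 and lowered 4 of them, which is 70%, against 69.0% of all genes (35.2% higher, 33.7% lower), so that the count alone was at the background. In labelled dKO cells MI-503 raised 2 and lowered 5, against 55.6% of all genes called (29.1% higher, 26.5% lower). Among the MI-503 libraries 3 were higher and 4 lower under the dKO label, against 55.1% of all genes (26.6% higher, 28.5% lower). The MI-503 effect differed between genotypes for 9, of which 8 were downward and Egfr upward, against 46.8% of all genes (24.8% upward, 22.0% downward). The median log2 fold change of the 10 genes was 0.26 in DMSO between genotypes, 0.0038 for MI-503 in WT and -0.46 in labelled dKO cells, and -0.11 between genotypes with MI-503, beside medians over all genes of -0.052, 0.031, 0.031 and 0.0071. These comparisons are not independent, since each group of libraries enters 2 of the 4.

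**Figure D3:**
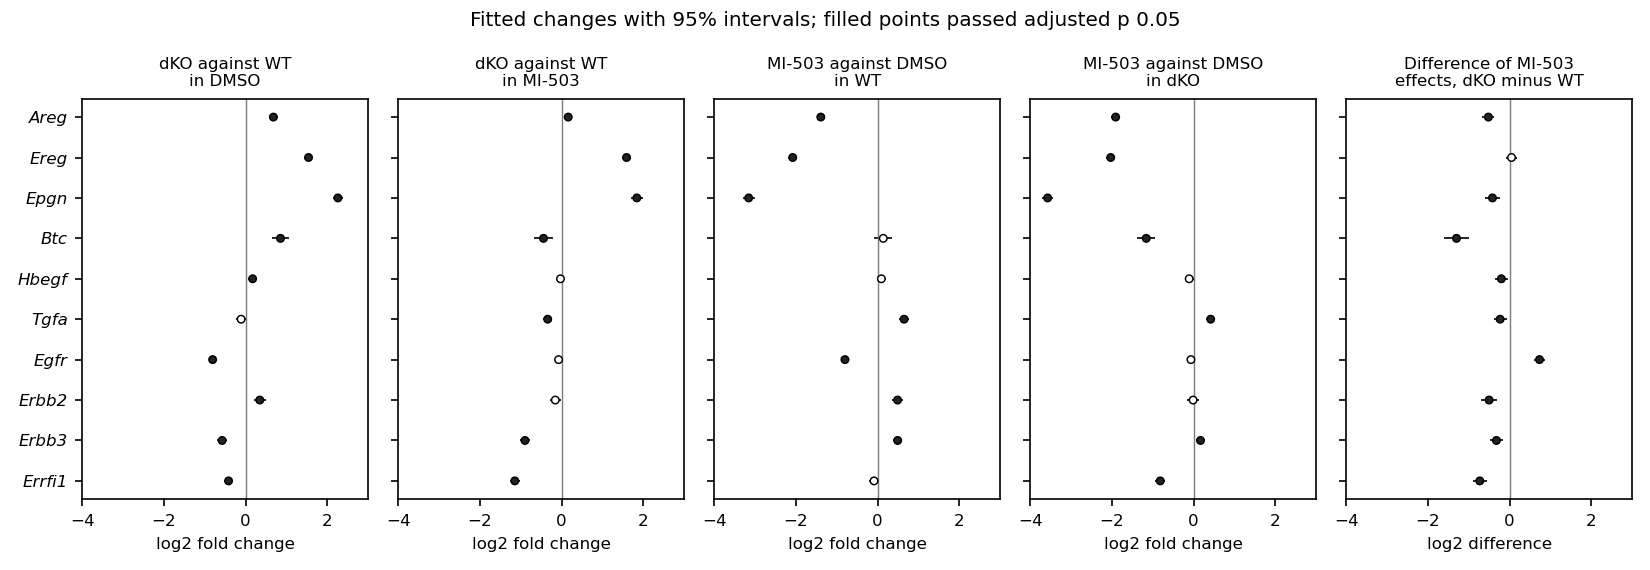
Log2 fold change (x axis) of the 10 genes (rows) in 4 comparisons and the difference of the MI-503 effects between genotypes, with 95% intervals; filled points passed an adjusted p of 0.05. Epgn lies farthest from 0 in the first 4 panels, and Egfr is the only gene with a positive filled point in the last.

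Of the 10 genes, 6 have annotated spans that overlap another RefSeq gene: Ereg (Gm19610), Hbegf (Gm41698), Egfr (Egfros and Gm39584), Erbb2 (Mien1), Erbb3 (Mir6917) and Errfi1 (1700045H11Rik). Because no source used here gives the strand setting of the counting, reads of such partners cannot be told apart. Values of these 6 genes carry that limit.

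Among 10122 other genes with a mean of at least 5 CPM, those with the most similar pattern were found by the root mean square distance of log2 CPM, each centred over the 8 libraries. For Areg these were Gtpbp2 (distance 0.12), Steap2 (0.16) and Snhg12 (0.16). For Ereg they were Creb5 (0.20), which encodes a transcription factor of the CREB family, Slc24a3 (0.22) and Nt5e (0.29). For Epgn, Ereg itself (0.70) and Creb5 (0.72) were among the nearest, both farther off than the genes named for Areg and Ereg. The Egfr pattern had close matches in Sec22b (0.023), Alkbh5 (0.028) and Uba2 (0.031).

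The rest of the pathway was described from 93 listed genes in 5 lists, of which 90 were tested. In labelled dKO against WT cells in DMSO 31 rose and 48 fell (87.8%, against 65.4% of all genes), with a median log2 fold change of -0.25. With MI-503, 31 rose and 45 fell in WT (median -0.15) and 23 rose and 40 fell in labelled dKO cells (median -0.13). These were 84.4% and 70%, against 69.0% and 55.6% of all genes. Between genotypes with MI-503, 24 rose and 40 fell (71.1%, against 55.1% of all genes), with a median of -0.092.

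Of the other ligand and receptor genes, Nrg3 and Erbb4 had 0 counts in all 8 libraries, which allows at most 0.0438 to 0.0516 CPM per library (3 counts, for counting error only, before TMM scaling), so that no Erbb4 RNA was detectable at this depth. Egf RNA was at most 0.588 CPM in group means. Nrg1, which encodes a neuregulin that binds ERBB3 and ERBB4, measured 291 ± 2.20 CPM in WT cells given DMSO, 198 ± 1.10 in WT cells given MI-503, 658 ± 1.88 in labelled dKO DMSO and 394 ± 8.21 in labelled dKO MI-503 (SD, n = 2). Like Areg and Ereg it was highest in labelled dKO DMSO and lowest in WT MI-503, but unlike them it was higher in labelled dKO MI-503 than in WT DMSO. Nrg1 rose under the dKO label by 1.18 in DMSO and 0.99 with MI-503 and fell with MI-503 by 0.55 in WT and by 0.74 in labelled dKO cells on the log2 scale, where the largest edgeR adjusted p was 4.17e-08. Nrg2 rose with MI-503 from 6.30 ± 0.545 to 13.6 ± 0.557 CPM in WT (log2 fold change 1.11, edgeR adjusted p = 2.09e-07) and less in labelled dKO cells (0.44, edgeR adjusted p = 0.00148).

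Ligand release depends on ADAM17 and ADAM10, metalloproteases that cut these ligands from the membrane, and on the iRhom proteins and FRMD8, which bring ADAM17 to the cell surface. Of 11 tested genes of this list, 4 rose and 5 fell under the dKO label in DMSO (81.8%, against 65.4% of all genes). With MI-503, 5 rose and 5 fell in WT and 6 rose and 4 fell in labelled dKO cells. That is 90.9% each time, against 69.0% and 55.6% of all genes. Both protease genes fell with MI-503: Adam10 by 0.39 on the log2 scale in WT and by 0.89 in labelled dKO cells (edgeR adjusted p = 1.07e-05 and 6.85e-09), Adam17 by 0.17 and by 0.50 (edgeR adjusted p = 0.00975 and 2.29e-06). Frmd8 rose with MI-503 in both, by 0.78 in WT and 0.44 in labelled dKO cells (edgeR adjusted p = 5.03e-06 and 0.000863). The iRhom gene Rhbdf2 also rose in both, by 0.56 and 0.67 (edgeR adjusted p = 0.000267 and 0.000117). Adam9 went from 136 ± 0.662 to 181 ± 0.530 CPM in WT and from 109.7 ± 2.14 to 87.5 ± 0.792 CPM in labelled dKO cells (SD, n = 2). Adam15 was higher under the dKO label with either treatment (log2 fold change 1.29 in DMSO and 1.01 with MI-503).

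Of 26 receptor turnover and inhibition genes, 8 rose and 15 fell under the dKO label in DMSO, where 29.6% of all genes rose and 35.8% fell, and 4 rose and 15 fell with MI-503, where 26.6% rose and 28.5% fell. Cblb, which encodes a ubiquitin ligase for EGFR, fell in DMSO by 0.79 on the log2 scale (SE 0.056, edgeR adjusted p = 2.68e-08), and Lrig1, which encodes a membrane inhibitor of ERBB receptors, was lower under the dKO label with either treatment, by log2 fold changes of -0.81 in DMSO and -0.74 with MI-503 (edgeR adjusted p = 5.79e-08 and 2.33e-07). With MI-503, 7 rose and 12 fell in WT, and 4 rose and 14 fell in labelled dKO cells. These were 73.1% and 69.2% of the list, against 69.0% and 55.6% of all genes. The phosphatase gene Ptpn1 rose in both (1.17 and 0.80) and Ptpn2, a related phosphatase gene, fell in both (-1.60 and -1.03, largest edgeR adjusted p = 3.62e-08 of these 4 changes). Sh3kbp1, which encodes an adaptor for CBL proteins in receptor uptake, rose under the dKO label in DMSO by 0.99 (edgeR adjusted p = 3.42e-10).

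Of 31 signal transduction genes, 7 rose and 21 fell under the dKO label in DMSO (median log2 fold change -0.31), and 5 rose and 13 fell with MI-503 (median -0.099). These were 90.3% and 58.1% of the list, against 65.4% and 55.1% of all genes. MI-503 raised 9 and lowered 19 in WT (90.3%, against 69.0% of all genes). In labelled dKO cells it raised 5 and lowered 14 (61.3%, against 55.6%). Mapk3, which encodes the kinase ERK1, rose with MI-503 in both (1.34 and 0.49, largest edgeR adjusted p = 1.19e-06). Pik3cb, a PI3K catalytic subunit gene, and Gab1, a docking protein gene, fell under the dKO label in DMSO by 1.72 and by 1.31 on the log2 scale, while the regulatory subunit gene Pik3r2 rose by 2.49.

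ERK-responsive genes went both ways. Of 18, 10 rose and 7 fell under the dKO label in DMSO and also with MI-503. That is 94.4% each time, against 65.4% and 55.1% of all genes. MI-503 raised 8 and lowered 7 in WT (83.3%, against 69.0% of all genes). In labelled dKO cells it raised 7 and lowered 7 (77.8%, against 55.6%). Dusp6, a feedback phosphatase gene for ERK, measured 202 ± 1.62 CPM in WT cells given DMSO, 245 ± 2.01 in WT cells given MI-503, 442 ± 7.11 in labelled dKO DMSO and 367 ± 5.13 in labelled dKO MI-503. It was highest in the group where Areg and Ereg were highest, but MI-503 raised it in WT (log2 fold change 0.28, edgeR adjusted p = 4.38e-05), where both fell, and lowered it slightly in labelled dKO cells (-0.27, edgeR adjusted p = 8.91e-05). Egr1, an immediate early transcription factor gene, was higher under the dKO label with either treatment (log2 fold change 1.31 in DMSO and 1.11 with MI-503), whereas Hmga2, an architectural chromatin protein gene, was lower (-1.61 and -1.95). With MI-503, Etv4, an ETS factor gene, rose in WT and in labelled dKO cells (1.19 and 0.73) and Ets2 fell (-1.06 and -0.49). Fos fell with MI-503 by 1.47 on the log2 scale in WT and fell by 1.01 in labelled dKO cells (edgeR adjusted p = 6.81e-09 and 6.01e-07).

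**Figure D4:**
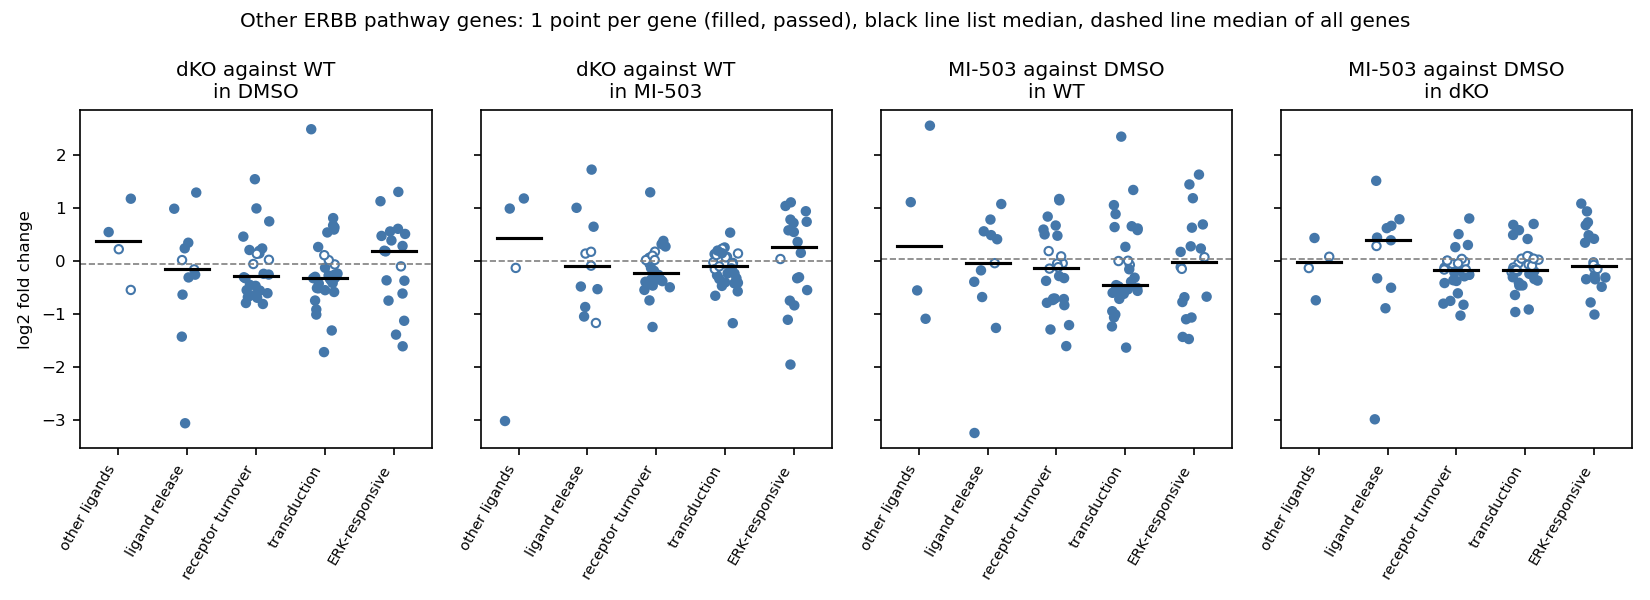
Log2 fold change (y axis) of the 90 tested genes of the other ERBB pathway lists (x axis) in 4 comparisons; filled points passed an adjusted p of 0.05, black lines are list medians and the dashed line is the median of all genes tested. The transduction list has its lowest median (-0.45) with MI-503 in WT.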

How the data were processed

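Only the 8 polyA RNA-seq libraries of the 40 samples were used; the other 32 were not analysed here. The authors deposited unnormalized whole-number counts for each Ensembl gene. Per the submitters' processing notes, the series used STAR, Bowtie2, MACS3, deepTools and SICER, with GRCm38 and mm10 as builds. No source used here gives versions, the counting program, strand setting or annotation release. Of 53465 identifiers, 53274 had a symbol, and 1 row lacking an identifier was dropped.

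edgeR 4.0.16 (R 4.3.3) was run on the counts after filterByExpr by group (minimum count 10, minimum total 15) and TMM scaling, with a mean for each group, all 8 libraries and 4 residual degrees of freedom. The smallest p of an exact permutation of 2 against 2 libraries is 0.333. Alternatives tried were DESeq2 1.42.0, RLE or no size factors, no or a stricter filter (minimum count 50), a fit of 2 groups alone, the replicate number as a block, and leaving out a library in turn. A fit lacking both WT DMSO libraries, and the ER chaperone list, were chosen after seeing the data. The 10 genes and every list were chosen with earlier results of these data known.

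The text names the 10 genes, Kmt2c and Kmt2d, the chromosome 5 neighbours, the 3 nearest patterns of Areg, Ereg, Epgn and Egfr (0.125 CPM added before log2), and pathway genes drawn from those with the 2 smallest adjusted p per list, direction and comparison at a mean of at least 5 CPM. Some genes that this rule names are not reported here. Egf, Nrg3, Erbb4 and single marker genes were named after their values were seen. Levels are not given per length, since no exon lengths were used here. Replicates differed beyond counting noise in every group (chi-square per degree of freedom 5.47 to 14.3), so no library was merged.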

Additional observations from a re-analysis of the deposited data

Results flagged for a closer look

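By the interaction term of the edgeR fit, which rests in part on the WT DMSO libraries, 46.8% of all genes passed. The part of the ER chaperone state of those libraries in this was not tested. By that term, the effect of MI-503 differed between the genotype labels for 9 of the 10 genes. As the effect in labelled dKO cells minus that in WT on the log2 scale, it was 0.73 for Egfr, -1.30 for Btc, -0.73 for Errfi1, -0.52 for Areg, -0.50 for Erbb2, -0.42 for Epgn, -0.32 for Erbb3, -0.23 for Tgfa and -0.20 for Hbegf. Those of Tgfa and Hbegf had edgeR adjusted p = 0.0203 and 0.0399 and were each lost on leaving out any 1 of 5 libraries: for Tgfa, WT DMSO replicate 2, WT MI-503 replicates 1 and 2, labelled dKO DMSO replicate 1 or labelled dKO MI-503 replicate 1, where it ran from -0.24 to -0.19; for Hbegf, the same except WT DMSO replicate 1 in place of 2, where it ran from -0.24 to -0.15.

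Of the 90 other pathway genes tested, 35 went upward and 30 downward past the same test (72.2%, against 46.8% of all genes). The values below are of up to 2 genes per list and direction with the smallest adjusted p at a mean of at least 5 CPM, not of all that passed. Of the ligand list, where 0 went upward and 2 downward of 4, these were Nrg2 (-0.68) and Nrg1 (-0.19). Of the ligand release list, with 3 upward and 4 downward of 11, they were Adam9 (-0.74), Adam10 (-0.50) and Rhbdl2 (0.43). Of the receptor turnover list, with 10 upward and 9 downward of 26, they were Sh3kbp1 (-1.25), Socs5 (-0.52), Cbl (0.69) and Ptpn2 (0.58). Of the transduction list, with 14 upward and 10 downward of 31, they were Pik3r2 (-2.25), Mapk3 (-0.85), Pik3cb (1.06) and Gab1 (0.99). Of the ERK-responsive list, with 8 upward and 5 downward of 18, they were Dusp6 (-0.55), Etv4 (-0.45), Ets1 (0.76) and Ets2 (0.58).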

How the results depend on the processing

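Over the 50 changes of the 10 genes, DESeq2 and RLE size factors kept every direction and call. The fit without both WT DMSO libraries kept all 20 it could give. Those are the MI-503 effects in labelled dKO cells and the genotype differences with MI-503, neither of which compares WT DMSO libraries. That fit therefore cannot show how the other changes depend on the WT DMSO group. With library size as the only scaling, MI-503 in WT raised 5 of the 10 genes in place of 3. Under that scaling 5 changes that had not passed turned direction: Tgfa between genotypes in DMSO (0.12), Errfi1 with MI-503 in WT (0.089), Erbb2 with MI-503 in labelled dKO cells (0.0044), the Ereg difference of effects (-0.11) and Hbegf between genotypes with MI-503 (0.043). The Ereg difference was also -0.049 with no filter and -0.046 with a stricter one. In labelled dKO cells MI-503 raised 1 of the 10 genes in place of 2 with no filter and in the fit of those groups alone, and 1 to 2 when single libraries were left out. Leaving out single libraries moved Erbb2 with MI-503 in labelled dKO cells from -0.067 to 0.040 and Hbegf between genotypes with MI-503 from -0.067 to 0.015. The cause was not tested. Library size alone raised the median of all genes by 0.23 between genotypes in DMSO and by 0.17 with MI-503 in WT, and moved the share of higher calls from 45.3% to 61.7% in the first and from 52.9% to 37.2% for the difference of effects, which no filter took to 42.7%.

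The replicate numbers are not stated to pair libraries, and only 2 exist. Deviations of same-numbered libraries correlated at 0.41 to 0.46 among WT DMSO, WT MI-503 and labelled dKO MI-503 and at -0.63 to -0.51 with labelled dKO DMSO, across 10123 genes, which are not independent. With the replicate block all 50 changes kept their call, and calls over all genes went from 11070 to 10798 between genotypes in DMSO and from 7915 to 7572 for the difference of effects.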
